A study of Mus musculus with 6 samples.

Results

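Genes that bring glucose into the cell and carry it through the first steps of glycolysis were followed in embryonic hearts that lack PKM1, the pyruvate kinase isoform that closes the same pathway. They are the glucose transporters *Slc2a1*, *Slc2a3* and *Slc2a4*, the hexokinases *Hk1* and *Hk2*, the isomerase *Gpi1*, the phosphofructokinase subunits *Pfkl*, *Pfkm* and *Pfkp*, and the bifunctional regulator *Pfkfb2*. They were chosen by name for their place upstream of the deleted enzyme, with earlier results of these data known. All 10 were found among the 13809 genes of the count table. RNA-seq was performed on hearts at embryonic day 18.5, in 3 wildtype (WT) and 3 pkm1-knockout (KO) libraries made from total RNA after removal of ribosomal RNA. The study describes the tissue as ventricular and the libraries as biological replicates, and neither it nor the labels say whether a library is 1 embryo or a pool. KO embryos are homozygous for a small CRISPR/Cas9 deletion in the *Pkm1*-specific exon, carried in every cell of the embryo, and no other allele or agent is given for either group. The line was made in zygotes of BDF1 hybrid mice, and KO embryos come from heterozygote crosses. With no replicate number in the count columns, the libraries are named WT a, WT b, WT c, KO a, KO b and KO c here.

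Glucose enters cells through GLUT transporters and is trapped by hexokinase as glucose phosphate, which the isomerase converts to fructose phosphate. Phosphofructokinase then commits the sugar to glycolysis, and PFKFB enzymes set the level of its strongest activator, a fructose bisphosphate. The fetal heart depends strongly on glucose and lactate and carries much GLUT1 (*Slc2a1*), whereas the insulin-responsive GLUT4 (*Slc2a4*) becomes the main transporter of the heart after birth.

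In KO hearts 7 of the 10 genes were higher, 1 was lower and 2 did not pass the threshold. The largest rise was in *Slc2a1*, by 60.4%, followed by *Slc2a3*, *Hk2*, *Pfkl* and *Pfkp*, which were 37.8%, 27.5%, 26.8% and 20.2% higher. The muscle subunit *Pfkm* fell by 5.86%, and the KO libraries of *Slc2a4* lay on both sides of its WT libraries. The test was edgeR's quasi-likelihood test over 13804 genes with Benjamini-Hochberg adjustment and a threshold of 0.05, which called 30.3% of all genes, 14.6% higher and 15.7% lower. The median log2 fold change was 0.24 for the 10 genes and 0.00172 for all genes tested. For 8 of the 10 genes, the same 8 that passed the threshold, the 3 KO libraries did not overlap with the 3 WT libraries. In 7 of them every KO library was above and in 1 every KO library was below. Of all genes, 42.4% did not overlap, 21% with every KO library above and 21.4% with every KO library below. Levels are CPM (counts scaled to a common library size) after TMM scaling, and changes are log2 fold changes of KO against WT.

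**Figure D1:**
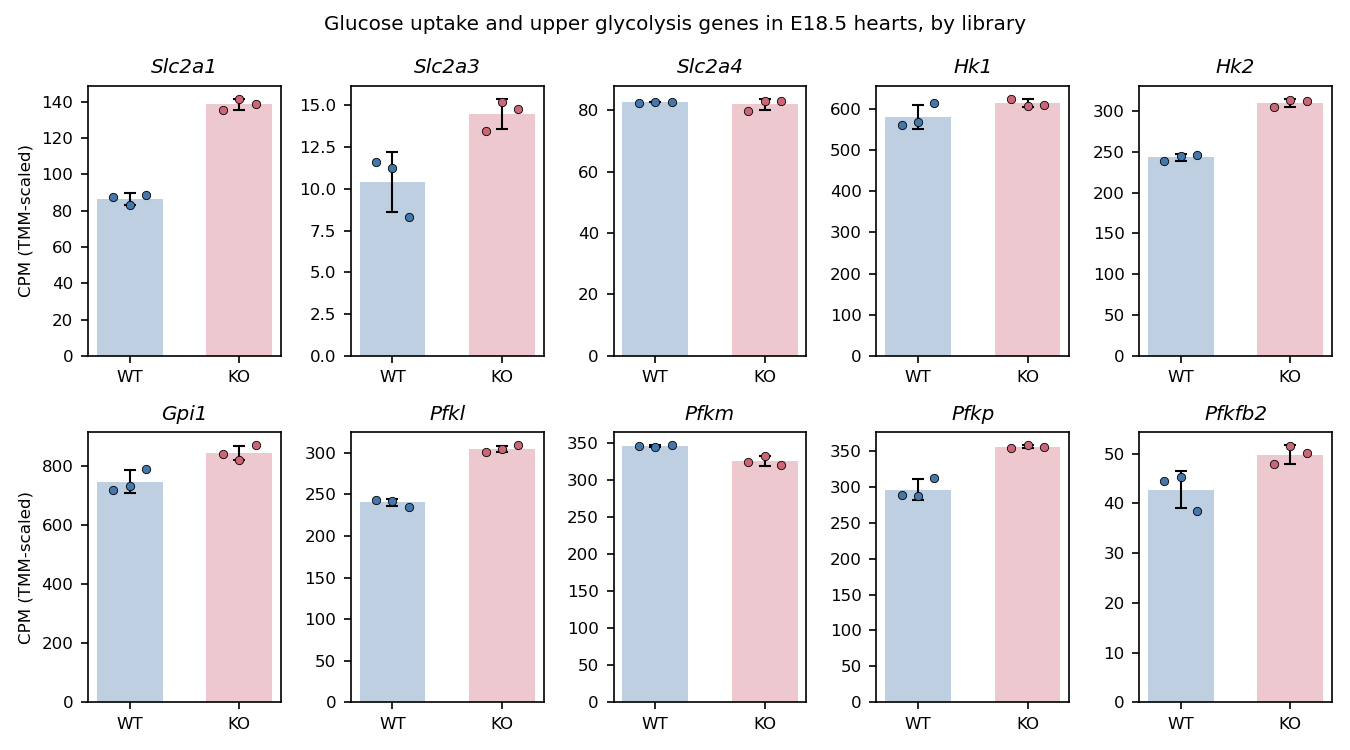
Level of each of the 10 genes in CPM (vertical axes, starting at 0) in WT and KO hearts. Bars are means of 3 libraries, error bars are SD and points are single libraries. The KO points of *Slc2a1*, *Hk2*, *Pfkl* and *Pfkp* lie clear of the WT points, and those of *Slc2a4* and *Hk1* overlap with them.

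Library totals ranged from 15567624 to 19875546 counts, so that 3 counts, taken as the limit of detection for counting error only, were worth 0.153 to 0.197 CPM. *Pkm*, the targeted gene, was at 1294, 1296 and 1366 CPM in WT a, b and c and at 547, 530 and 549 CPM in KO a, b and c. *Pkm* counts do not separate the transcripts of PKM1 and PKM2. Between replicates, the chi-square per gene, which is near 1 for pure sampling noise, was 1.56 for WT a with WT b, 3.76 and 3.24 for WT c with these, and 1.62 to 1.88 among KO libraries. The groups also differed in sex-linked transcripts: the WT mean of *Xist* was 5.26 CPM against 2285 CPM for KO. No KO library held a count (0) for *Kdm5d*, *Eif2s3y*, *Uty* or *Ddx3y*, all on Y. None of the 10 genes is on X or Y, but sex and genotype cannot be told apart for any difference given here. Of 10 cardiomyocyte markers, 8 were lower and 1 higher, with *Ttn*, *Myh6* and *Tnnt2* abundant in every library, and their summed level was 131246 to 135367 CPM in WT and 123676 to 125133 CPM in KO. Atrial markers were higher in 3 of 6, with sums of 595 to 601 CPM in WT and 1006 to 1030 CPM in KO. Those higher were *Nppa*, *Myl4* and *Myl7*, and *Nr2f1*, *Nr2f2* and *Stard10* did not pass the threshold. Most of the sum came from *Nppa*, with means of 372 CPM in WT and 597 CPM in KO, and *Myl4*, with 142 and 305 CPM. Of 6 epicardial markers 3 were higher (95.1 to 99.0 and 110 to 114 CPM), and of 8 fibroblast markers 4 were lower (3946 to 3992 and 3677 to 3746 CPM). Of all genes tested, 14.6% were higher and 15.7% lower. The part of these markers in the results below was not tested. In bulk tissue, fewer cells of a type and less RNA per cell cannot be told apart.

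The sequences before the starts of *Slc2a1*, *Hk2* and *Pfkp* are shown as examples from genes that were higher, 1 at each of the uptake, trapping and commitment steps. They come from RefSeq on GRCm38.p6, read 5′ to 3′ on the gene's strand and stop where the annotated gene begins. Capitals mark CCAAT, the core letters bound by NFY, and ACGTG or GCGTG, the core letters bound by HIF factors, on either strand. *Pfkl*, also of the commitment step, rose more than *Pfkp* but is not shown. The 250 bases before its RefSeq start held no CCAAT and 1 GCGTG, and all of them lay inside the annotated gene.
Slc2a1, chr4:119108495-119108710, plus strand: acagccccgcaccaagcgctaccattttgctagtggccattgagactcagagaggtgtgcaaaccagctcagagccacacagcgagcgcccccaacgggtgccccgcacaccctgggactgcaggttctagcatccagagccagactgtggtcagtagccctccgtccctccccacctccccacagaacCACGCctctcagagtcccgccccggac
Hk2, chr6:82774455-82774704, minus strand: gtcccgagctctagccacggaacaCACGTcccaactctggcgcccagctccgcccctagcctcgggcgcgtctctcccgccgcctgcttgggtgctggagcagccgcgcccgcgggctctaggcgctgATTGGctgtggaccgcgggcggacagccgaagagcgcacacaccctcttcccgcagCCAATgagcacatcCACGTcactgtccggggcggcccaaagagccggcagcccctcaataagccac
Pfkp, chr13:6648778-6649021, minus strand: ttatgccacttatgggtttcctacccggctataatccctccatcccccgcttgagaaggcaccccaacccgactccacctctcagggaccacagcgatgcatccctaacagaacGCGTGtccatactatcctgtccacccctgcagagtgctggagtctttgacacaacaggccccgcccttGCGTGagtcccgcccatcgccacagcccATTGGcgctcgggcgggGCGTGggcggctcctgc

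Windows of 250 bases before RefSeq starts were searched for 8 of the 10 genes, all but *Slc2a3* and *Slc2a4*, and some genes had several starts, which gave 14 windows. ACGTG or GCGTG occurred in 11 of the 14 windows and in at least 1 window of 7 genes, against 38.6% of 32851 windows of all genes. The exception was *Gpi1*, which was higher in KO hearts, while *Pfkm*, which was lower, held these letters in 3 of its 4 windows. CCAAT occurred in 3 windows, those of *Hk2* and *Pfkp* and 1 of *Pfkfb2*, against 33.8% of all windows. The Sp letters GGGCGG were found in windows of 5 genes and 32.7% of all windows. CACGTG, which contains ACGTG on both strands, was found in windows of 2 genes and 6.02% of all windows. Several windows of a gene share bases, and these matches are letters in a sequence, not measured binding.

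*Slc2a1* encodes GLUT1, the transporter of basal glucose uptake, and spans chromosome 4 from 119108711 to 119137983 on the plus strand. It was at 87.7, 82.9 and 88.7 CPM in WT a, b and c and at 136, 141 and 139 CPM in KO a, b and c. Every KO library was above every WT library, and the lowest KO value was 1.53 times the highest WT value. The means were 86.4 ± 3.12 CPM in WT and 139 ± 2.96 CPM in KO (SD, n = 3 each). On the log2 scale the difference was 0.68 (standard error 0.0404, 95% interval 0.60 to 0.76, quasi-likelihood adjusted p = 3.33e-13, edgeR). *Slc2a1* was the only 1 of the 10 genes to rise by at least 1.5-fold, as 2.99% of all genes tested did past the threshold, and none of the 10 fell by that much, against 3.2% of all genes. GLUT1 is also abundant in red cells, whose haemoglobin genes were not analysed here. The erythroid genes *Alas2*, which starts haem synthesis in red cell precursors, and *Slc4a1*, the anion exchanger of the red cell membrane, moved in opposite directions. *Alas2* was higher, at 25.9 to 27.3 CPM in WT and 30.4 to 36.9 CPM in KO, and *Slc4a1* was lower, at 6.20 to 8.28 CPM in WT and 4.72 to 5.49 CPM in KO. Their part in the *Slc2a1* result was not tested.

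*Slc2a3* encodes GLUT3, a high-affinity transporter best known in neurons, on the minus strand of chromosome 6 from 122727809 to 122801640. It was the least abundant of the 10 genes, with 127 to 275 counts per library. Its levels were 11.6, 11.3 and 8.34 CPM in WT and 13.5, 15.2 and 14.8 CPM in KO. WT c was the lowest library, and the groups still did not overlap, although KO a lay only 1.16 times above WT a. KO differed from WT by a log2 fold change of 0.46 (standard error 0.106, 95% interval 0.24 to 0.68, quasi-likelihood adjusted p = 0.00156, edgeR), and without WT c it was 0.34 (adjusted p = 0.00685 from edgeR). Only 3 of 7 neuronal and neural crest markers were measured, of which *Stmn2* was lower and none higher, at 7.04 to 8.69 CPM in sum in WT and 6.68 to 9.41 CPM in KO. Of 10 macrophage and leukocyte markers, 2 were lower and none higher, with sums of 64.0 to 66.9 CPM and 61.3 to 70.0 CPM. Endothelial markers moved both ways, 3 of 10 lower and 2 higher, with sums of 1439 to 1448 CPM and 1420 to 1447 CPM.

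*Slc2a4* encodes GLUT4, which moves to the cell surface in response to insulin and contraction, and lies on the minus strand of chromosome 11 from 69942539 to 69948188. Its levels were 82.5, 82.6 and 82.7 CPM in WT and 79.9, 82.9 and 83.0 CPM in KO. The WT libraries were nearly equal, and 2 KO libraries lay above all of them and 1 below. This gave a log2 fold change of -0.01 with a 95% interval of -0.10 to 0.07 (quasi-likelihood adjusted p = 0.852, edgeR). Without KO a the sign turned, to 0.0055.

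The balance among the 3 transporters was also compared within each library, on CPM per kilobase of annotated exons, which allows different genes to be set side by side. *Slc2a1* made up 49.5% ± 1.06 of the summed transporter level in WT and 60.7% ± 0.269 in KO (SD, n = 3 each), and *Slc2a4* 47.7% ± 0.762 and 36.2% ± 0.257. *Slc2a3* held 2.88% ± 0.511 and 3.07% ± 0.127, and its share overlapped between the groups. The 2 main transporters were thus nearly level in WT hearts, and *Slc2a1* exceeded *Slc2a4* in KO hearts. The summed level of the 3 transporters was 48.9 to 50.3 CPM per kilobase in WT and 63.5 to 66.3 CPM per kilobase in KO, a ratio of 1.30. With 3 libraries against 3, an exact two-sided permutation test cannot give a p below 0.1, and the shares of *Slc2a1* and *Slc2a4* both reached that value (adjusted p = 0.117 over 7 shares).

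**Figure D2:**
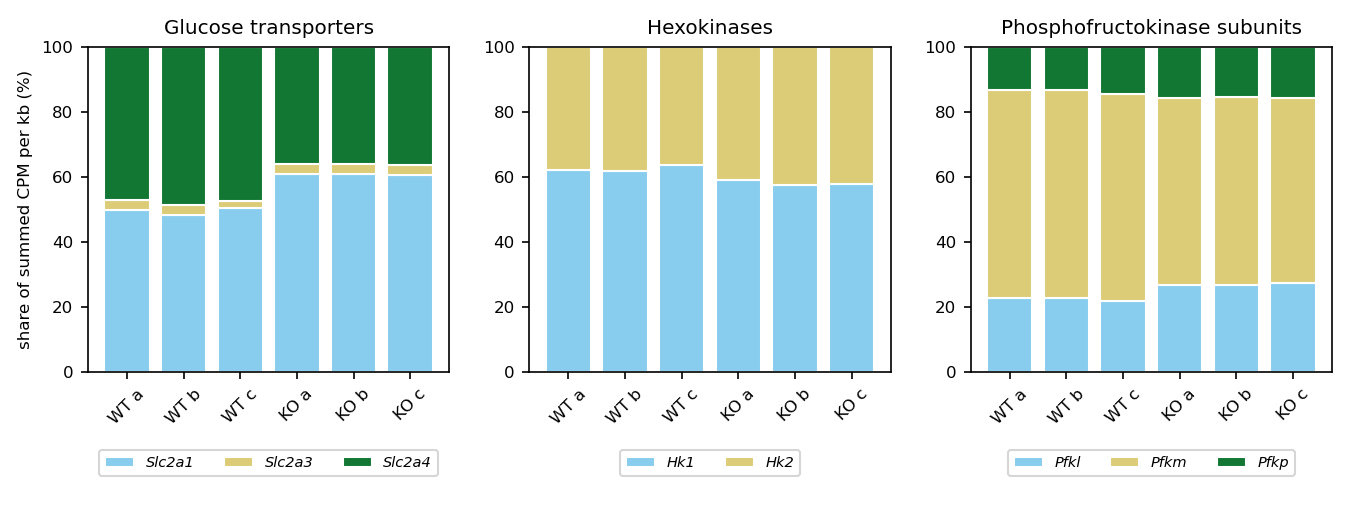
Share of each gene in the summed CPM per kilobase of its family (vertical axes, percent) in each WT and KO library, for transporters, hexokinases and phosphofructokinase subunits. *Slc2a1* takes 48.3% to 50.4% of the transporter sum in WT and 60.4% to 60.9% in KO, and *Pfkm* takes a smaller part of its family in every KO library.

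Hexokinase I and hexokinase II both bind mitochondria. *Hk1* is broadly expressed, and *Hk2* is the insulin-responsive form of muscle, heart and fat. *Hk2*, on the minus strand of chromosome 6 from 82725025 to 82774454, was at 238, 245 and 246 CPM in WT and at 304, 313 and 312 CPM in KO. The groups were well apart, with the lowest KO library 1.24 times the highest WT library and an SD of 3.97 CPM in WT and 4.86 CPM in KO. Relative to WT, the log2 fold change was 0.35 (standard error 0.0309, 95% interval 0.29 to 0.41, quasi-likelihood adjusted p = 1.24e-09, edgeR). The base sequence printed above for *Hk2* holds both CCAAT and the HIF core letters.

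*Hk1*, on the minus strand of chromosome 10 from 62268855 to 62379908, was at 560, 568 and 614 CPM in WT and at 624, 607 and 609 CPM in KO. WT c reached into the range of the KO libraries, while WT a and WT b lay below all of them. On the log2 scale the difference was 0.08 (standard error 0.0307, 95% interval 0.02 to 0.14), and the adjusted p of edgeR's quasi-likelihood test was 0.0500011, just above the threshold. It passed in 5 of the 16 alternatives, among them the fit without WT c, where the log2 fold change was 0.12 (adjusted p = 1.64e-05 from edgeR). As a share of the 2 hexokinases per length, *Hk2* took 37.8%, 38.1% and 36.4% in WT a, b and c and 41.0%, 42.4% and 42.3% in KO a, b and c. The share rose by 4.49 percentage points with no overlap between the groups (exact permutation p = 0.1, the smallest possible; adjusted p = 0.117). The ratio of *Hk2* to *Hk1*, which needs no gene length, was 0.27 higher in KO on the log2 scale, and its groups did not overlap either.

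*Gpi1* encodes the isomerase that links the hexokinase and phosphofructokinase steps, on the minus strand of chromosome 7 from 34201330 to 34230336. Its levels were 719, 733 and 791 CPM in WT and 841, 823 and 871 CPM in KO. WT c was again the highest of its group, and the lowest KO library exceeded it by a factor of only 1.04. KO differed from WT by a log2 fold change of 0.18 (standard error 0.0309, 95% interval 0.11 to 0.24, quasi-likelihood adjusted p = 7.75e-05, edgeR). Of the exon bases of *Gpi1*, 11.5% are shared with *Gm26762*, a non-coding gene on the opposite strand, and the strand setting of the counting is not given in the sources used here.

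Phosphofructokinase is a tetramer whose subunits are named for liver (*Pfkl*), muscle (*Pfkm*) and platelet (*Pfkp*). *Pfkl*, on the minus strand of chromosome 10 from 77986947 to 78010083, was at 243, 242 and 235 CPM in WT and at 301, 305 and 309 CPM in KO. The KO libraries were all at least 1.24 times the highest WT library. This gave a log2 fold change of 0.34 (standard error 0.0309, 95% interval 0.28 to 0.41, quasi-likelihood adjusted p = 1.95e-09, edgeR). *Pfkp*, on the minus strand of chromosome 13 from 6579768 to 6648777, was at 289, 287 and 312 CPM in WT and at 354, 357 and 356 CPM in KO. Among the 10 genes its KO libraries were the most alike, with an SD of 0.533% of the mean, against 4.75% in WT, where WT c stood above the others. Relative to WT, the log2 fold change was 0.27 (standard error 0.0327, 95% interval 0.20 to 0.33, quasi-likelihood adjusted p = 5.13e-07, edgeR). *Pfkp* shares 5.58% of its exon bases with *Pitrm1* on the opposite strand, and the log2 fold change of *Pitrm1* was -0.12 (adjusted p = 0.0528 from edgeR).

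*Pfkm*, the main subunit of striated muscle, lies on the plus strand of chromosome 15 from 98092589 to 98132451 and went the other way. It was at 346, 345 and 347 CPM in WT and at 325, 332 and 320 CPM in KO, so that the highest KO library was still below the lowest WT library. On the log2 scale the difference was -0.09 (standard error 0.0294, 95% interval -0.15 to -0.03, quasi-likelihood adjusted p = 0.0256, edgeR). The call was lost with DESeq2 (adjusted p = 0.0575) and without WT b, KO a or KO c (adjusted p = 0.0654, 0.0877 and 0.115 from edgeR). The cardiomyocyte markers given above also had a negative median log2 fold change, of -0.21, and their part in the *Pfkm* value was not tested. *Pfkm* shares 10.2% of its exon bases with *Gm26513*, an overlapping non-coding gene of the same strand.

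Set against each other per length, the 3 subunits shifted in their proportions. *Pfkm* supplied 64.1% ± 0.115 of the phosphofructokinase sum in WT and 57.5% ± 0.575 in KO, *Pfkl* 22.3% ± 0.487 and 26.9% ± 0.473, and *Pfkp* 13.7% ± 0.591 and 15.6% ± 0.107 (SD, n = 3 each). No share overlapped between the groups (exact permutation p = 0.1 for each, the smallest possible; adjusted p = 0.117 over 7 shares). The sum itself differed less, from 161 to 162 CPM per kilobase in WT to 169 to 172 CPM per kilobase in KO, a ratio of 1.05. The ratio of *Pfkl* to *Pfkm* was 0.43 higher and that of *Pfkp* to *Pfkm* 0.35 higher in KO on the log2 scale, and both ratios kept the groups apart.

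*Pfkfb2* encodes the heart form of the enzyme that makes and removes the fructose bisphosphate activator, and its protein is a known substrate of AMPK and AKT. The gene lies on the minus strand of chromosome 1 from 130689182 to 130729253. It was at 44.4, 45.3 and 38.5 CPM in WT and at 47.8, 51.5 and 50.1 CPM in KO. WT c was the lowest library, as for *Slc2a3*, and the lowest KO library was 1.06 times the highest WT library. KO differed from WT by a log2 fold change of 0.21 (standard error 0.0600, 95% interval 0.09 to 0.34, quasi-likelihood adjusted p = 0.00792, edgeR), and 0.15 without WT c (adjusted p = 0.0376 from edgeR). Of its exon bases, 17.4% are shared with the same-strand gene model *Gm29427*. How reads from these bases were counted is not given, and their effect on the *Pfkfb2* values was not tested.

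**Figure D3:**
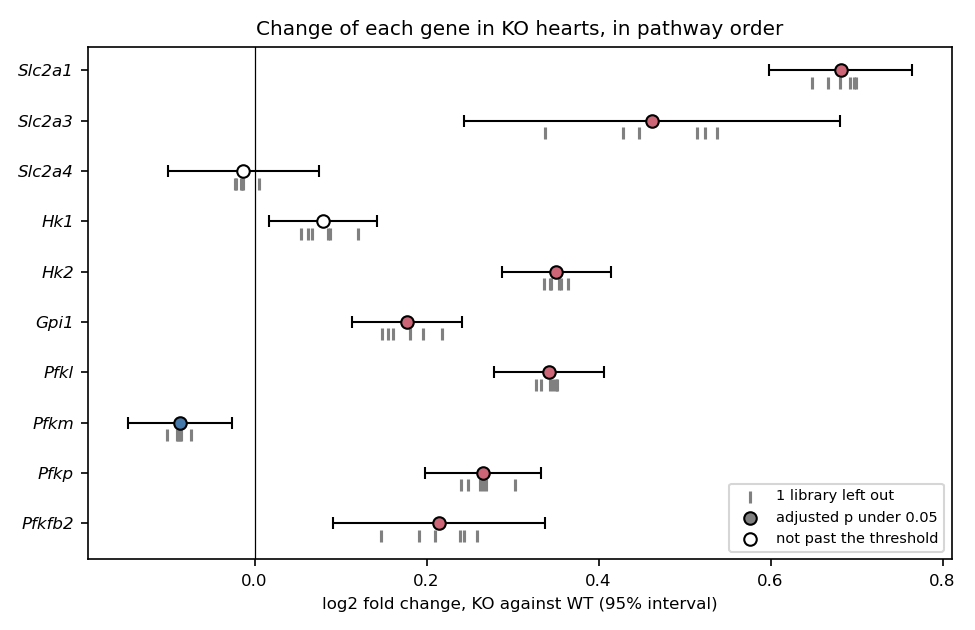
Log2 fold change of KO against WT (horizontal axis) for the 10 genes from uptake to *Pfkfb2*, with 95% intervals from edgeR's quasi-likelihood test. Filled points passed an adjusted p of 0.05, open points did not, and grey ticks are the fits that each leave out 1 library. *Slc2a1* stands highest at 0.68 and *Pfkm* lowest at -0.09.

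Ordered by level per length in WT hearts, *Gpi1* was highest at 116 ± 5.95 CPM per kilobase, followed by *Pfkm* at 104 ± 0.254, *Hk1* at 68.0 ± 3.4, *Hk2* at 40.7 ± 0.666 and *Pfkl* at 36.02 ± 0.647 (SD, n = 3). *Slc2a1* and *Slc2a4* came next at 24.7 ± 0.891 and 23.8 ± 0.0354 and were the only neighbours in the WT order whose libraries overlapped. *Pfkp* at 22.1 ± 1.05, *Pfkfb2* at 5.89 ± 0.511 and *Slc2a3* at 1.44 ± 0.247 closed the list. In KO hearts the order was the same except that *Pfkp*, at 26.5 ± 0.141, stood above *Slc2a4*, at 23.5 ± 0.509, and no neighbours overlapped. The order depends on the annotated length: with the longest transcript in place of all exons, *Hk1* stood above *Pfkm*, *Pfkl* above *Hk2* and *Pfkp* above *Slc2a4* in both groups, and *Pfkp* also stood above *Slc2a1* in WT.

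**Figure D4:**
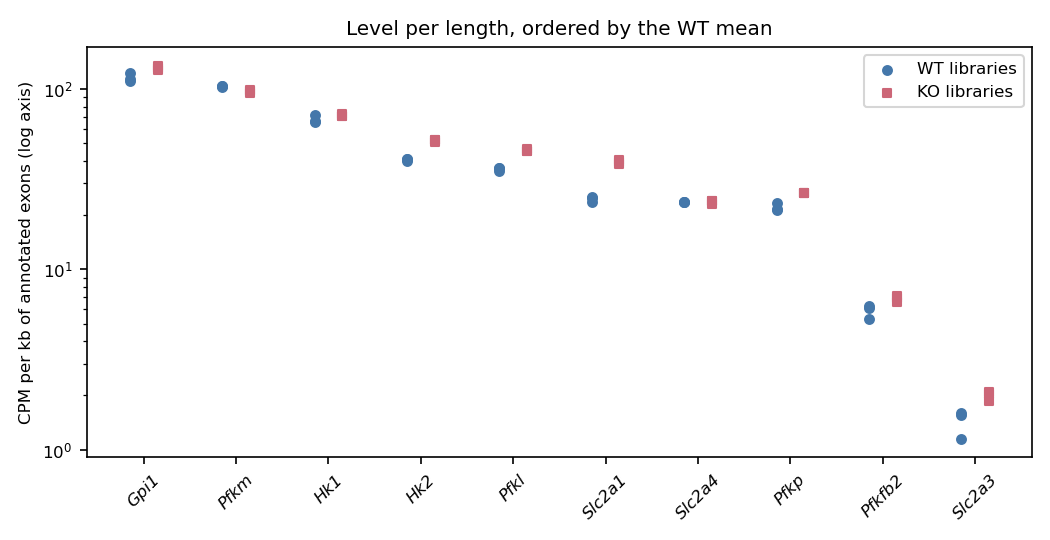
CPM per kilobase of annotated exons (vertical axis, log scale) for each of the 10 genes in 3 WT libraries (circles) and 3 KO libraries (squares), ordered by the WT mean. *Slc2a1* and *Slc2a4* lie together in WT, and *Slc2a1* alone of the pair lies higher in KO.

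Of 24 other transporters and entry enzymes listed, 14 were tested. Of these, 4 were higher in KO and none passed as lower, against 14.6% and 15.7% of all genes tested. The largest rise was in *Pfkfb3*, a stress- and hypoxia-responsive isoform of the same family as *Pfkfb2* that strongly favours making the activator. *Pfkfb3* was at 19.9, 20.7 and 23.5 CPM in WT and at 45.1, 41.9 and 44.8 CPM in KO, with every KO library well above the WT libraries. The difference was 1.05 on the log2 scale (standard error 0.0671, quasi-likelihood adjusted p = 1.72e-12, edgeR). *Slc37a4*, which carries glucose phosphate into the endoplasmic reticulum, had a log2 fold change of 0.43, and the transporters *Slc2a13* and *Slc2a6* had 0.38 and 0.84. *Slc2a6* was low, with means of 1.00 CPM (WT) and 1.82 CPM (KO). With DESeq2, or without WT a or KO c, only *Pfkfb3* and *Slc37a4* were called. *Slc2a6* was also not called without WT c, nor *Slc2a13* without KO b, and without WT b *Slc2a9* was called lower. *G6pc3* was called higher without KO a or WT c. These genes are named after their values were seen. The median log2 fold change over the 14 genes was 0.04.

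Among 13 lower glycolysis genes tested, which include *Pkm*, 6 were higher and 4 lower, against 14.6% and 15.7% of all genes tested. The median log2 fold change of the 13 genes was 0.04. After *Eno1b* and *Pkm*, the largest changes among genes past the threshold were in *Pgam1* and *Ldha*, at 0.61 and 0.17. *Eno1b* went from 0.643 to 27.7 CPM in the mean. It was at 0.405, 0.868 and 0.657 CPM in WT and at 24.9, 27.7 and 30.6 CPM in KO. No gene of the count table is named *Eno1*, a near-identical gene. Whether reads of *Eno1* were counted under *Eno1b* was not tested. *Pgam1* may share reads with its processed copies, which was not tested either.

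GLUT4 is held in vesicles that insulin releases through AKT, the RAB regulators TBC1D4 and TBC1D1 and the fusion protein VAMP2. Of 17 genes of this trafficking route, 4 were lower and 3 higher in KO, against 15.7% and 14.6% of all genes tested. The median log2 fold change of the 17 genes was -0.06. *Vamp2* fell most, at a log2 fold change of -0.48, and *Tbc1d1* changed by -0.23, while *Exoc7* and *Tbc1d4* rose by 0.27 and 0.23 on the log2 scale. Of 16 genes of insulin receptor, AKT and AMPK signalling, 4 were lower and 3 higher, beside the same shares of all genes. *Irs2*, an adaptor of the insulin receptor, was at 125, 125 and 123 CPM in WT and at 31.7, 30.6 and 33.7 CPM in KO. The difference was -1.95 on the log2 scale (standard error 0.0481, quasi-likelihood adjusted p = 5.53e-22, edgeR), larger in size than that of any of the 10 glucose genes. *Irs1* and *Pik3r1* were also lower, at -0.46 and -0.24, and the AMPK subunit gene *Prkag1* was higher, at 0.26. Without KO b only *Prkag1* was called higher, 1 gene of this list.

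Of 25 transcription factors and coactivators linked to these genes, 8 were lower and 7 higher, against 15.7% and 14.6% of all genes tested. *Myc*, a known activator of glycolytic genes, fell most, from 54.3 to 23.3 CPM in the mean, a log2 fold change of -1.22. *Mlxipl*, which senses glucose phosphates, and *Epas1*, a HIF subunit, were lower at -0.36 and -0.27, and *Ppara*, a regulator of fat oxidation, was higher at 0.47. Genes of HIF, NFY and Sp factors, which bind some of the letters searched above, were singled out after their values were seen. Factors that bind CACGTG were not gone through in this way. *Hif1a* and its partner *Arnt* had log2 fold changes of 0.11 and -0.13 (adjusted p = 0.0190 and 0.0150, edgeR). Of the NFY subunit genes, *Nfya* and *Nfyc* were higher, at 0.27 and 0.22 (adjusted p = 0.000692 and 0.000773, edgeR), and *Nfyb* was at -0.02 (adjusted p = 0.890, edgeR). By qRT-PCR the study found *Nfya* mRNA unaltered in KO hearts at this age, and it reported less NFYa protein there. The counts measure RNA only, and the difference from the qRT-PCR result was not tested. *Sp1* was higher at 0.12 (adjusted p = 0.0174, edgeR), and *Sp3* was at -0.09 (adjusted p = 0.120, edgeR). *Epas1*, given above, also encodes a HIF subunit.

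**Figure D5:**
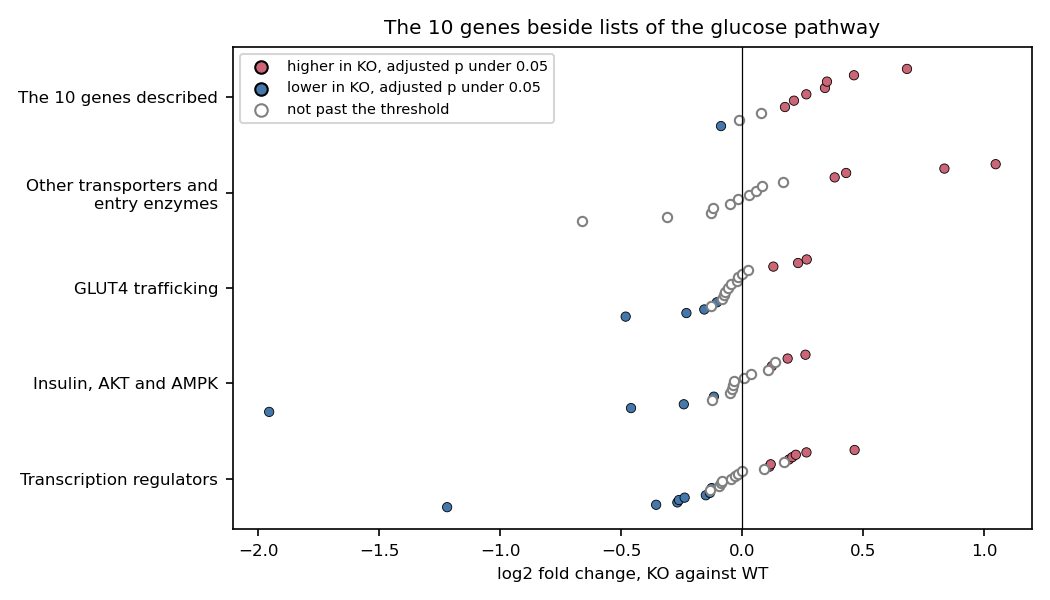
Log2 fold change of KO against WT (horizontal axis) for the 10 genes and for 4 lists of related genes, 1 point per gene. Coloured points passed an adjusted p of 0.05 and white points did not. The 10 genes lie mostly above 0, whereas the trafficking, signalling and regulator lists lie on both sides, with *Irs2* at -1.95 farthest out.

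By Pearson's r of log2 CPM over the 6 libraries, the genes most like *Slc2a1* were *Rfwd3* and *Slc6a17* (r = 0.99977 and 0.9996), and those most like *Pfkm* were *Epb4.1l2* and *Bckdha* (r = 0.99886 and 0.99852). With 2 groups of 3 libraries, such values mostly follow the difference between the groups and are given as a description.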

How the data were processed

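RNA-seq was performed by the authors on 3 WT and 3 KO heart libraries with ribosomal RNA removed and paired ends. Per the labels, cutadapt 1.18, HISAT2, StringTie and the mm10 build were used; the counting program and its strand setting are not given in the sources used here. Unnormalised counts were deposited by the authors, with genes named by symbol and a column for each library, for 13809 genes with at least 59 counts over the 6 libraries. The same table holds the authors' own comparison (log fold change, average level, p-value and false discovery rate), which was not used.

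edgeR 4.0.16 (R 4.3.3) was used on these counts. The filterByExpr filter left 13804 genes and removed 5. TMM factors set the scale, genotype was the sole covariate of the quasi-likelihood test, and p-values were adjusted over all genes by Benjamini-Hochberg. Standard errors are the log2 fold change divided by the square root of F. P-values measure only the spread between these libraries, which may be partly technical. The test was tried on simulated counts. Gene positions and exon lengths came from GENCODE on GRCm38. Shares were tested with scipy 1.17.1, and figures drawn with matplotlib 3.10.9.

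The 10 genes and the lists were chosen with earlier results of these data known. Named by rule are the 10 genes and *Pkm*. From each pathway list, up to 4 called genes with the largest change and a mean of at least 1 CPM are named. For the called genes with the largest rise and fall, the 2 genes of highest r are named. Outside this rule are sex-linked and marker genes, overlapping genes, genes of HIF, NFY and Sp factors, and genes whose call changed under an alternative. Some of these were not called. Alternatives were RLE factors, TMM without *Rn45s*, DESeq2 1.42.0, edgeR's exact and likelihood ratio tests, limma 3.58.1 voom, other filters, X and Y left out, and each library left out. Summing WT a and WT b was added after seeing the data.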

Additional observations from a re-analysis of the deposited data

How the results depend on the processing

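No paired analysis was possible because the count columns carry no replicate numbers. Over 16 alternatives each, 7 of the 10 genes kept their direction and side of the threshold. *Hk1* passed in 5: TMM without *Rn45s* (adjusted p = 0.0482), voom (0.0265), at least 10 counts in every library (0.0450), X and Y left out (0.0480) and without WT c (1.64e-05, edgeR), over a range up to 0.232. *Pfkm* lost its call in 4, with adjusted p-values from 0.00735 to 0.115 over all alternatives, so that the number of lower genes was 0 with DESeq2 and 0 to 1 with 1 library left out. *Slc2a4* reversed without KO a, to a log2 fold change of 0.0055 (adjusted p = 0.952, edgeR; -0.0228 to 0.0055 with 1 library left out), and the change in the *Slc2a3* share reversed without WT c, to -0.108 percentage points (up to 0.335 with other libraries left out, and 0.362 with raw counts). The *Pfkl* share changed by 5.19 points with the longest transcript and 3.67 with raw counts, because the length enters it. Of the other transporters and entry enzymes, 2 were higher with DESeq2, and 2 to 5 higher and 0 to 1 lower with 1 library left out; the cause was not tested. Over all genes, 1639 to 2306 were lower and 1362 to 2199 higher under the alternatives, all within 1.5 times of 2168 and 2011. Depth limits *Slc2a3* most, at 127 to 275 counts a library.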
